A study of Mus musculus with 9 samples.

Results

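The results concern 8 genes for regulators of G protein signalling: Rgs1, Rgs2, Rgs3, Rgs4, Rgs5, Rgs10, Rgs12 and Rgs16. They were chosen by name, as 8 of the 46517 gene rows of a read count table, and followed across the 9 cell labels of the deposit. The cells came from small vessels of the adult mouse brain, broken up and digested to single cells, and were read by Smart-seq2, a plate method that covers whole transcripts without molecular identifiers. Strain, sex, treatment and the number of animals are not given in the sources used here, so it is unknown how many animals stand behind a group. The groups are the labels MG (137 cells), PC (54), vSMC (29), aSMC (41), FB (9), aEC (116), vEC (45), CP-EC (17) and capilEC (787), each deposited as 1 sample, and the abbreviations are not spelled out there. No treatment or genotype separates them.

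When a receptor is activated, the alpha subunit of its G protein takes up GTP and signals until it has hydrolysed it. Regulators of G protein signalling share a domain that binds the active alpha subunit and speeds that hydrolysis, so they shorten the signal. In vessel walls the receptors concerned include those for endothelin, angiotensin, noradrenaline and sphingosine 1-phosphate, and in microglia those for chemokines, complement peptides and nucleotides.

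Levels are reads of a gene per 1000000 reads of a label (CPM), from the summed reads of its cells. With 1 sample per label there is no replicate spread, so no test was made and no p-value is given. A gene was called higher or lower by size alone: at least 4-fold on the log2(CPM + 5) scale, no fewer than 50 CPM in the higher group, and 50% or more of its cells with a read. The cells carry 1 of 4 plate names, and values by plate (for labels with at least 5 cells on it) describe the spread within a sample. The plates are not known to be separate animals. Shares of cells were taken after thinning each cell to 100000 reads, and a cell with at least 5 such reads of a gene is said to hold it clearly. All intervals are exact 95% intervals and cover counting error only.

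The cells held 100021 to 854836 reads, with medians per label of 158325 in PC to 269635 in aSMC. Marker lists followed the labels. The endothelial list summed to 9942 to 14220 CPM in aEC, vEC, CP-EC and capilEC, and to 735 to 3478 CPM in the other labels, highest in PC. The mural list summed to 5640 to 5933 CPM in PC, vSMC and aSMC, the microglia list to 29879 CPM in MG and the fibroblast list to 9332 CPM in FB. The FB cells also held 1576 CPM of an astrocyte list, but 3 of its 6 genes (Aqp4, Slc1a2 and Gfap) had 0 reads in FB. The 9 FB cells never reached 5 on a plate. A filter on markers of another class left out 38 of 54 PC and 14 of 29 vSMC cells, against 19 of 787 capilEC cells. Values without those cells stand beside some of the results they move.

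Rgs5 and Rgs4 were the members with the highest levels in the mural labels. Rgs5, a widely used pericyte marker that dampens signals of vasoconstrictor receptors, stood at 7412 CPM in vSMC (7345 to 7480), 6061 CPM in PC (6014 to 6107) and 1230 CPM in aSMC (1210 to 1251). Rgs4, which acts on the Gi and Gq classes of alpha subunit and is known from smooth muscle and neurons, stood at 1263 CPM in PC, 1290 CPM in vSMC and 1950 CPM in aSMC (1925 to 1976). By these sums the label with the least Rgs5 among the mural ones had the most Rgs4. The next label for Rgs5 was aEC at 167 CPM, and the next for Rgs4 was capilEC at 9.54 CPM.

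The order of Rgs5 was clearer across plates than that of Rgs4. On plates s169s, s480s, s482s and s483s, Rgs5 stood at 9413, 7235, 6733 and 6651 CPM in vSMC. In PC it stood at 5538, 5496, 5857 and 7886 CPM on the same plates. In aSMC the values were 1099, 760.5, 2152 and 852.9 CPM, so every aSMC plate lay below every PC and vSMC plate, while PC and vSMC overlapped. Rgs4 stood at 1557, 1301, 1042 and 1627 CPM in PC. It stood at 2094, 1353, 1049 and 834.7 CPM in vSMC. In aSMC the 4 plates gave 3627, 1189, 2156 and 1804 CPM, and the 3 ranges overlapped.

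**Figure D1:**
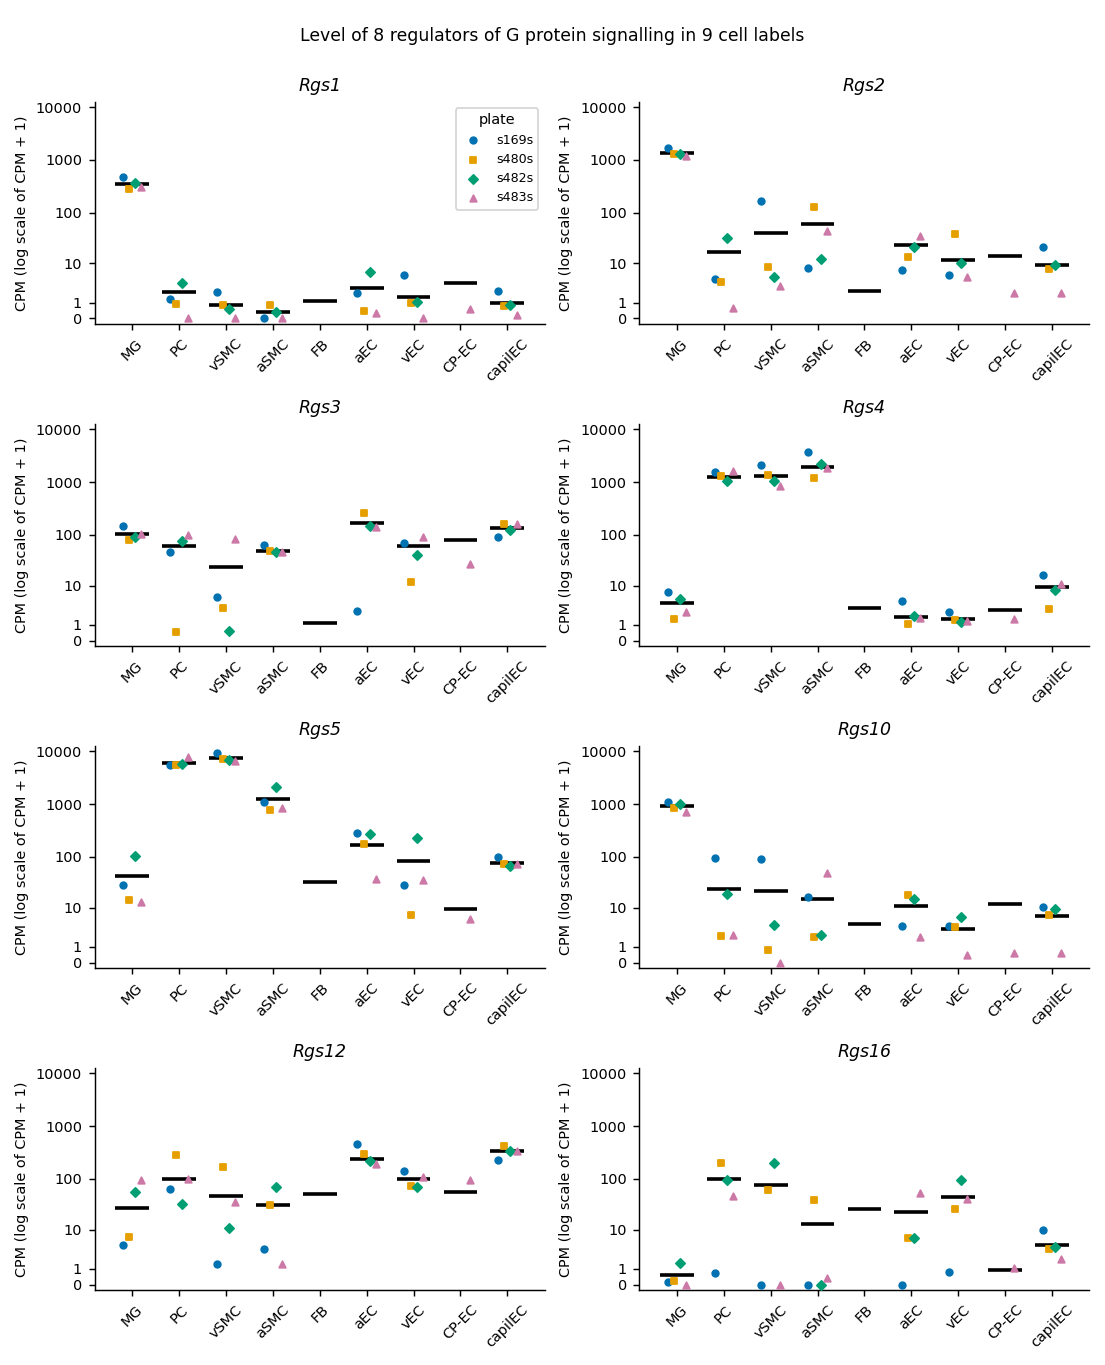
Level of each gene in the 9 labels, in CPM on a log scale of CPM + 1. Bars are all cells of a label (1 sample), points are plates with at least 5 cells of the label. Rgs4 and Rgs5 stand high in PC, vSMC and aSMC, Rgs1, Rgs2 and Rgs10 in MG, and Rgs3 and Rgs12 spread over most labels.

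Both genes were called higher in the mural labels (mean of PC, vSMC and aSMC) than in the endothelial ones (mean of aEC, vEC and capilEC). Rgs4 averaged 1501 CPM in mural and 4.29 CPM in endothelial labels, a log2 difference of 7.34 with plates at 7.21 to 7.57. Rgs5 averaged 4901 CPM in mural and 109 CPM in endothelial labels, a log2 difference of 5.43 with plates at 4.68 to 6.59. It grew to 6.01 without plate s482s, 6.06 without the largest cell of each label and 6.10 without cells carrying another class's markers. It fell to 5.06 without plate s483s and 5.25 with a pseudocount of 20 CPM. These are 2 of the 7 members with over 5 CPM in either group, and 0 members were called lower. Of all 12714 genes compared, 1.12% were called higher and 1.79% lower. The log2 difference had a median of 1.11 over all 8 members, with Rgs1 included, and of −0.03 over all genes compared.

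The other members differed less between these groups. Rgs2 stood at 39.1 CPM in mural and 15.0 CPM in endothelial labels, a log2 difference of 1.14. That difference was 0.64 without cells carrying another class's markers and 0.49 without the largest cell of each label. Rgs16 stood at 62.1 CPM in mural and 24.2 CPM in endothelial labels, and Rgs10 at 20.1 CPM in mural and 6.83 CPM in endothelial labels, each higher in mural labels on 2 of 4 plates. The Rgs10 log2 difference of 1.09 was 0.34 without plate s169s and 0.06 without the largest cell of each label. Rgs3 stood at 44.1 CPM in mural and 120 CPM in endothelial labels, and was lower in mural labels on 4 of 4 plates. Rgs12 stood at 59.9 CPM in mural and 224 CPM in endothelial labels, a log2 difference of −1.82 with plates at −3.32 to −0.72. It missed the 4-fold threshold, and passed it when the cell with the largest count was left out of each label or when plate s480s was left out.

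Within the mural labels Rgs5 was the member that the size rule called. PC held 6061 CPM and aSMC 1230 CPM, a log2 difference of 2.30 (plates 1.44 to 3.20), at a background of 1.26% of 12252 genes called higher and 1.22% lower. vSMC held 7412 CPM and aSMC 1230 CPM, a log2 difference of 2.59 (plates 1.64 to 3.24, and 3.28 without cells carrying another class's markers), at a background of 1.08% of 11623 genes higher and 0.869% lower. Both comparisons share the aSMC cells. Rgs4 was lower in both, with log2 differences of −0.62 in PC and −0.59 in vSMC against aSMC, and 1 plate of 4 went the other way in each. Marker lists differed between these labels too: the pericyte list summed to 12342 CPM in PC, 6213 CPM in vSMC and 565 CPM in aSMC, and the smooth muscle list to 675 CPM in PC, 7049 CPM in vSMC and 15511 CPM in aSMC. Rgs5 and the pericyte list were both lowest in aSMC, but the list was higher in PC than in vSMC, while Rgs5 overlapped between them across plates. The part of the lists' cell types in the result was not tested.

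Set per kilobase of exon, the pair changed places between the labels. Rgs5 stood at 1333 CPM per kb in PC and Rgs4 at 408 CPM per kb, a ratio of 3.27 (plates 2.42 to 3.83). In vSMC the ratio was 3.92 (plates 3.06 to 5.43). In aSMC Rgs5 stood at 271 CPM per kb and Rgs4 at 629 CPM per kb, a ratio of 0.430 (plates 0.207 to 0.680). All 4 plates lay on the same side of 1 in each label.

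Single cells showed the same exchange. Rgs5 was the higher of the pair per kb in 49 of 54 PC cells, 28 of 29 vSMC cells and 8 of 41 aSMC cells. Rgs5 was clear in 52 of 54 PC cells (96.3%, 87.3 to 99.5), in all 29 vSMC cells and in 26 of 41 aSMC cells (63.4%, 46.9 to 77.9). Rgs4 was clear in 41 PC, 26 vSMC and 38 aSMC cells. The cells with 1 of the pair differed between labels: 11 PC cells and 3 vSMC cells held clear Rgs5 without Rgs4, while 12 aSMC cells held clear Rgs4 without Rgs5 and none the reverse. Among cells the levels hardly went together, with a Spearman rho of 0.08 over 54 PC cells and 0.32 over 41 aSMC cells, which share plates and thinned depth.

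**Figure D2:**
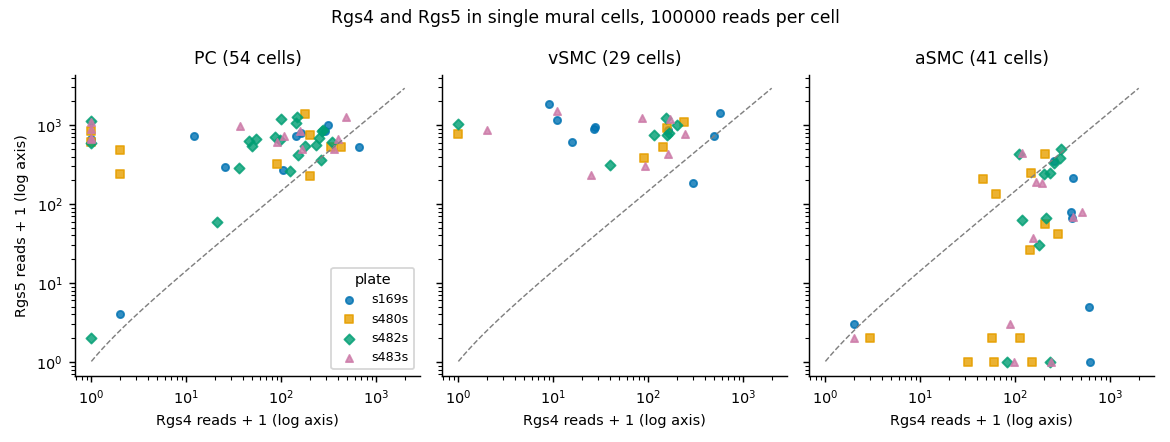
Reads of Rgs4 (x axis) and Rgs5 (y axis) in single cells after thinning to 100000 reads, plus 1, on log axes, for PC, vSMC and aSMC; each point is a cell, marked by plate. The dashed curve is equal reads per kilobase of exon; 49 of 54 PC cells lie above it and 33 of 41 aSMC cells below it.

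Dropping cells that carried another class's markers kept the order of Rgs5. Rgs5 then stood at 5941 CPM in PC, 9571 CPM in vSMC and 982 CPM in aSMC, and Rgs4 at 1843, 1368 and 2038 CPM. The 16 PC cells that this left are few. The dissociation list, genes of the early response to handling, summed to 18358 CPM in aSMC against 5703 CPM in PC and 3836 CPM in vSMC. Its part in the difference was not tested.

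Rgs4 and Rgs5 are neighbours on mouse chromosome 1, on opposite strands with 0 protein-coding genes between them in GENCODE M21. Their promoters are shown because the genes share the mural labels but not their order within them. Each is 250 bases before to 50 bases after the start of the gene from RefSeq on GRCm38.p6, 5′ to 3′ on the gene's own strand, and 7 of the 8 members matched that table. The Rgs4 window is chr1:169747593-169747892 on the minus strand and the Rgs5 window chr1:169655251-169655550 on the plus strand. Capitals mark matches, on either strand, to any of 5 short motifs: TATAAA (known from core promoters), TGACG (core of the cyclic AMP response element), GAGGAA (an ETS family core as bound by PU.1), TGGGAA (the RBPJ core) and the CArG box of serum response factor.
Rgs4: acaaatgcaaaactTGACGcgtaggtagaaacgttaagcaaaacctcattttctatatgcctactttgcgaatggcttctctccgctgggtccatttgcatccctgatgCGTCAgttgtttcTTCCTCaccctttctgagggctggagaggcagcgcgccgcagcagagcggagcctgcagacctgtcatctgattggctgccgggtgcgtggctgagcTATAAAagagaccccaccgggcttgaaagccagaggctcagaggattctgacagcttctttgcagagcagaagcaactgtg
Rgs5: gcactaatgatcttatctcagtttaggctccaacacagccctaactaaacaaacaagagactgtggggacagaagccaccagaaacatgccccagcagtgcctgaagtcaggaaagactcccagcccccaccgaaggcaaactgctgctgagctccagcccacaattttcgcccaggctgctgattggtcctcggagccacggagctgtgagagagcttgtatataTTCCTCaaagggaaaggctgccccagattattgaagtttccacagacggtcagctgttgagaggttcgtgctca
The Rgs4 window held TATAAA at position −31, TGACG at −236 and −141 and GAGGAA at −128, and the Rgs5 window held GAGGAA at −24. Positions count bases from the start site to the leftmost base of the match as printed, negative before it. Among all 32851 promoters of the same length, TATAAA was found in 13.6%, TGACG in 20.8%, GAGGAA in 28.3%, TGGGAA in 25.6% and the CArG box in 1.63%. Neither window held a CArG box or TGGGAA.

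Rgs2, Rgs10 and Rgs1 had their highest levels in MG. Rgs2, which acts mainly on the Gq class and is known in mice for its part in blood pressure, stood at 1367 CPM in MG (1354 to 1379) and at 59.1 CPM in aSMC, the next label. Rgs10, a small Gi regulator known in mouse microglia as a brake on inflammatory activation, stood at 939 CPM in MG (929 to 950) and at 23.4 CPM in PC, the next label. Rgs1, known from lymphocytes as a brake on chemokine receptors, stood at 356 CPM in MG (349 to 362) and at no more than 3.63 CPM elsewhere. MG held 23.1 times the Rgs2 level, 40.2 times the Rgs10 level and 98.1 times the Rgs1 level of the next label.

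The plates kept these levels close together. On plates s169s, s480s, s482s and s483s, Rgs2 stood at 1673, 1280, 1278 and 1172 CPM in MG. Rgs10 stood at 1088, 849.3, 1003 and 707.6 CPM, and Rgs1 at 472.6, 282.6, 368.3 and 310.6 CPM. No plate of another label came near: the highest was 167 CPM for Rgs2 (vSMC), 94.1 CPM for Rgs10 (PC) and 6.54 CPM for Rgs1 (aEC).

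Against the endothelial labels, MG was called higher for 2 of the 7 members compared and lower for 1, at a background of 2.19% of 12541 genes higher and 3.73% lower. Rgs10 stood at 939 CPM in MG and 6.83 CPM in endothelial labels, a log2 difference of 6.32 (plates 5.87 to 6.90). Rgs2 stood at 1367 CPM in MG and 15.0 CPM in endothelial labels, a log2 difference of 6.10 (plates 5.68 to 6.68). Rgs1 had a log2 difference of 5.74 (plates 5.59 to 5.94), but a read in 49.6% of MG cells, which misses the minimum of 50%. After thinning that share was 42.3%. Rgs1 was called when plate s482s was left out. Rgs12 was called lower, at 27.3 CPM in MG and 224 CPM in endothelial labels, with a log2 difference of −2.82. Its plates ran from −4.86 to −1.14, so 2 of the 4 fell short of 4-fold. The difference was −3.46 without plate s482s and −3.59 without cells carrying another class's markers. It was −2.25 without plate s480s and −2.37 with a pseudocount of 20 CPM.

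Rgs1 was read clearly in a minority of MG cells, and Rgs2 and Rgs10 in most of them. Rgs2 was clear in 129 of 137 MG cells (94.2%, 88.8 to 97.4) and Rgs10 in 121 (88.3%, 81.7 to 93.2). Rgs1 was clear in 49 cells (35.8%, 27.8 to 44.4), and 11 cells held 50% of all its reads. Both Rgs2 and Rgs10 were clear in 117 cells, and all but 2 of the cells with clear Rgs1 also held clear Rgs2. The median MG cell held 1288 CPM of Rgs2, 893 CPM of Rgs10 and 0 CPM of Rgs1. Per kilobase of exon Rgs10 led in MG at 549 CPM per kb, before Rgs2 at 377 and Rgs1 at 51.2. Spearman's rho over the 137 cells was 0.29 between Rgs2 and Rgs10, 0.27 between Rgs1 and Rgs2 and 0.06 between Rgs1 and Rgs10.

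**Figure D3:**
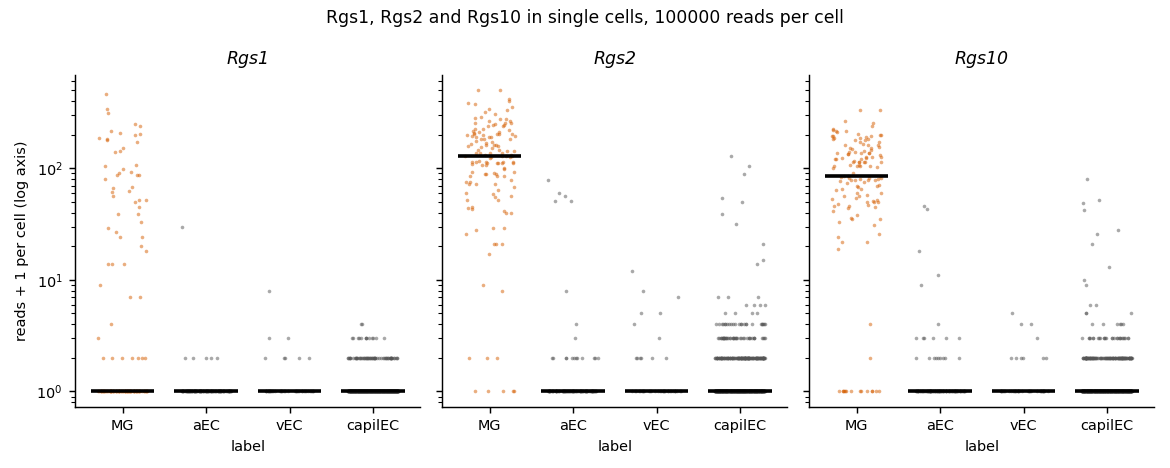
Reads of Rgs1, Rgs2 and Rgs10 in single cells after thinning to 100000 reads, plus 1, on a log axis, for MG, aEC, vEC and capilEC; points are cells and bars are medians. Most MG cells stand high for Rgs2 and Rgs10, while 49 of 137 hold at least 5 reads of Rgs1; the medians of the endothelial labels lie at 0 reads.

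The dissociation list summed to 28416 CPM in MG, the highest of the labels, against 3224 to 7189 CPM in aEC, vEC and capilEC. Rgs1 and Rgs2 are themselves known as inducible genes. Within MG, Spearman's rho of that list with the gene was −0.02 for Rgs1, 0.05 for Rgs2 and −0.01 for Rgs10 over 137 cells. Cells with clear Rgs1 had a median list level of 27250 CPM and the other MG cells 30555 CPM. For Rgs2 the medians were 30390 CPM in 129 clear cells and 22930 CPM in the others, and for Rgs10 30630 CPM in 121 clear cells and 25670 CPM in the others. In capilEC the 17 cells with clear Rgs2 had a median of 5110 CPM and the others 1885 CPM. The 12 capilEC cells with clear Rgs10 had 4275 CPM and the others 1910 CPM. Spearman's rho over the 787 capilEC cells was 0.05 for Rgs2 and 0.06 for Rgs10. In aEC the medians went the other way, at 3205 CPM in 6 cells with clear Rgs2 and 3770 CPM in the others. For Rgs10 in aEC they were 2930 CPM in 5 clear cells and 3760 CPM in the others. Whether handling raised the level of a whole label was not tested.

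The promoters of Rgs2 and Rgs10 are shown as those of the pair that most MG cells held, in the same form as above. The Rgs2 window is chr1:144004100-144004399 and the Rgs10 window chr7:128418123-128418422, both on the minus strand.
Rgs2: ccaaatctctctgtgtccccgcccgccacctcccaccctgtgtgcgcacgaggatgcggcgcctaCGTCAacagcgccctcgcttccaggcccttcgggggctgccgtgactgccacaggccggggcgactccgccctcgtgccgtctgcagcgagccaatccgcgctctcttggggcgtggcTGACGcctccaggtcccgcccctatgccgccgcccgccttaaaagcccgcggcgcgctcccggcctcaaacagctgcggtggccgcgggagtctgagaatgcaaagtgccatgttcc
Rgs10: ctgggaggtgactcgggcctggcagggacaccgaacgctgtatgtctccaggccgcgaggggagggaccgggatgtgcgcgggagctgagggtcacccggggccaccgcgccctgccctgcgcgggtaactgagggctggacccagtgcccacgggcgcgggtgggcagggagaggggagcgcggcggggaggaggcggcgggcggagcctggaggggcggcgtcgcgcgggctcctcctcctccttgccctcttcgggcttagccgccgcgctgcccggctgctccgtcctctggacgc
The Rgs2 window held TGACG at −185 and −67, and the Rgs10 window held 0 matches to the 5 motifs. G and C made up 70.0% of the Rgs2 window and 76.0% of the Rgs10 window, 53.0% of the Rgs4 window and 52.3% of the Rgs5 window.

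Low levels of these 3 genes in some other labels lay largely in single cells. Rgs1 in capilEC did not: its 160 reads were spread so that 39 cells held 50% of them, and 97.5% of its positive thinned cells had 1 or 2 reads. Of the Rgs2 reads in vSMC, 86.9% lay in 1 cell of plate s169s, which also held 90.4% of the Rgs10 reads of that label and 8215 CPM of the microglia list. Without cells that carried another class's markers, vSMC stood at 4.86 CPM for Rgs2 and 1.87 CPM for Rgs10, against 41.3 and 21.6 CPM with them. In aEC, 1 cell with 6966 CPM of the microglia list held 81.2% of the Rgs1 reads. Rgs2 in aSMC hardly moved when cells carrying another class's markers were left out, at 60.9 CPM without them and 59.1 CPM with them. It was clear in 4 of 41 aSMC cells, and 39.7% of its reads lay in 1 cell. Without that cell aSMC stood at 36.5 CPM for Rgs2. Its plates in aSMC ran from 8.14 to 130 CPM. In PC, Rgs10 stood at 47.9 CPM without such cells and 23.4 CPM with them, and 1 cell of plate s169s held 54.4% of its reads. That cell carried 5.75 CPM of the mural list, against a median of 4783 CPM over PC cells. The filter, which looks only for markers of other classes, kept it. Without the largest cell PC stood at 10.8 CPM for Rgs10.

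Rgs12 and Rgs3 had their highest levels in endothelial labels and were read in the others too. Rgs12, a large member that also carries domains binding Ras and inactive alpha subunits, stood at 333 CPM in capilEC (330 to 336), 240 CPM in aEC, 100 CPM in PC and 98.6 CPM in vEC. Rgs3, which acts on the Gi and Gq classes, stood at 164 CPM in aEC (159 to 168), 135 CPM in capilEC and 101 CPM in MG. Their lowest levels were 27.3 CPM in MG for Rgs12 and 1.17 CPM in FB for Rgs3. The exons of Rgs12 overlap the gene Gm43791 on the opposite strand over 5.50% of their length, and those of Rgs16 overlap Gm28513 over 10.1%. Reads there cannot be told apart in these counts.

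Neither stood at a high level in most cells. Rgs12 was clear in 302 of 787 capilEC cells (38.4%, 35.0 to 41.9), 32 of 116 aEC cells (27.6%, 19.7 to 36.7) and 11 of 45 vEC cells (24.4%, 12.9 to 39.5). Rgs3 was clear in 38 aEC cells (32.8%, 24.3 to 42.1), 188 capilEC cells (23.9%, 20.9 to 27.0) and 8 vEC cells (17.8%, 8.00 to 32.1). In capilEC 87 cells held both clearly and 384 neither, with a Spearman rho of 0.05 over 787 cells. The median capilEC cell held 10.9 CPM of Rgs12, while the upper quartile was 489 CPM. Per kilobase of exon Rgs12 led Rgs3 in capilEC by a ratio of 3.13 (plates 2.67 to 3.57).

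Between the endothelial labels 0 members were called. The background was low: of 11520 genes compared between aEC and capilEC, 0.148% were called higher and 0.0955% lower. Of 11820 compared between vEC and capilEC, 0.296% were called higher and 0.212% lower. Rgs12 stood at 98.6 CPM in vEC and 333 CPM in capilEC, a log2 difference of −1.71, lower on 4 of 4 plates (−2.43 to −0.72). It stood at 240 CPM in aEC and 333 CPM in capilEC, a difference of −0.46 that 1 plate of 4 reversed. Rgs3 stood at 60.8 CPM in vEC and 135 CPM in capilEC, a difference of −1.09, lower on 4 of 4 plates. It stood at 164 CPM in aEC and 135 CPM in capilEC, a difference of 0.27 with plates at −3.66 to 0.67. The plate at −3.66 had 7 aEC cells. Both comparisons share the capilEC cells.

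Rgs3 and Rgs12 were uneven outside the endothelial labels. Rgs12 in MG ran from 4.62 CPM on plate s169s to 93.9 CPM on plate s483s, and the cell with its highest CPM carried 13268 CPM of the endothelial list and 597 CPM of the microglia list. In FB 96.2% of Rgs12 reads lay in 1 cell. Rgs3 in vSMC ran from 0.509 to 84.0 CPM over plates, with 87.9% of reads in 1 cell. Rgs3 in MG was steadier, at 149, 78.4, 91.4 and 100.8 CPM on plates s169s, s480s, s482s and s483s, and was clear in 23 of 137 cells.

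**Figure D4:**
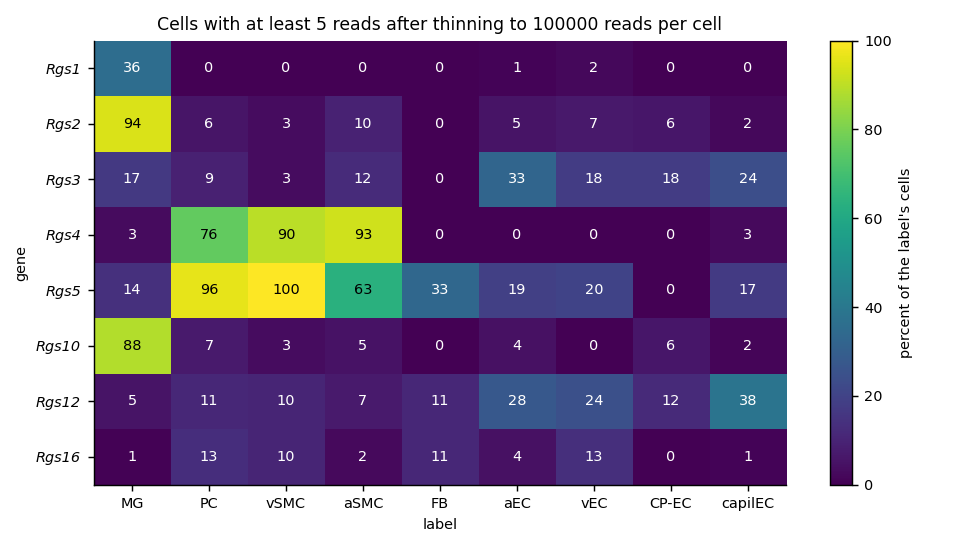
Percent of each label's cells with at least 5 reads of the gene after thinning to 100000 reads per cell, as colour and printed whole numbers; rows are genes, columns labels. The high fields are Rgs5 and Rgs4 in PC, vSMC and aSMC and Rgs2 and Rgs10 in MG; Rgs12 and Rgs3 reach 38.4% and 32.8% at most.

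Rgs5 was also read in most endothelial cells, at low numbers. It stood at 167 CPM in aEC, 83.9 CPM in vEC and 77.0 CPM in capilEC, and was clear in 22 of 116, 9 of 45 and 135 of 787 cells. In CP-EC it stood at 9.37 CPM and was clear in 0 of 17 cells (0 to 19.5%). After thinning, 67.0% of capilEC cells held a read of Rgs5, and 51.8% of those held 1 or 2 reads. In aEC 1 cell held 49.4% of the reads and carried 2154 CPM of the mural list, and without cells of that kind aEC stood at 63.3 CPM and capilEC at 77.7 CPM, which turns the order of these labels round. In vEC 1 cell held 52.4% of the reads and carried 236 CPM of the mural list, and without it vEC stood at 41.3 CPM. The median mural list level in cells with clear Rgs5 and in the others was 15 and 10 CPM in aEC, 10 and 0 CPM in vEC, and 10 CPM in both sets of capilEC cells. Spearman's rho of Rgs5 with that list was 0.13 over 116 aEC cells, 0.35 over 45 vEC cells and 0.17 over 787 capilEC cells. Rgs4 gave a contrast: it was clear in 20 of 787 capilEC cells, and in 0 of 116 aEC and 0 of 45 vEC cells.

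Rgs16, a Gi and Gq regulator known as an inducible gene of lymphocytes and liver, was the sparsest member. It stood at 97.8 CPM in PC, 75.2 CPM in vSMC, 45.3 CPM in vEC and 22.5 CPM in aEC, and at 0.521 CPM in MG. It was clear in 7 PC, 3 vSMC, 6 vEC and 5 aEC cells, and in 7 of 787 capilEC cells. PC held 97.8 CPM and aSMC 13.3 CPM, a log2 difference of 2.49, but a read was found in 16.7% of PC cells, so it was not called. vEC held 45.3 CPM and capilEC 4.70 CPM, a difference of 2.37 with plates at −1.37 to 3.44. In aSMC 99.4% of the reads lay in 1 cell. PC plates ran from 0.667 to 203 CPM and vSMC plates from 0 to 201 CPM, and these ranges overlapped. Without cells carrying another class's markers, PC stood at 25.3 CPM and aSMC at 21.0 CPM, a log2 difference of 0.22.

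**Figure D5:**
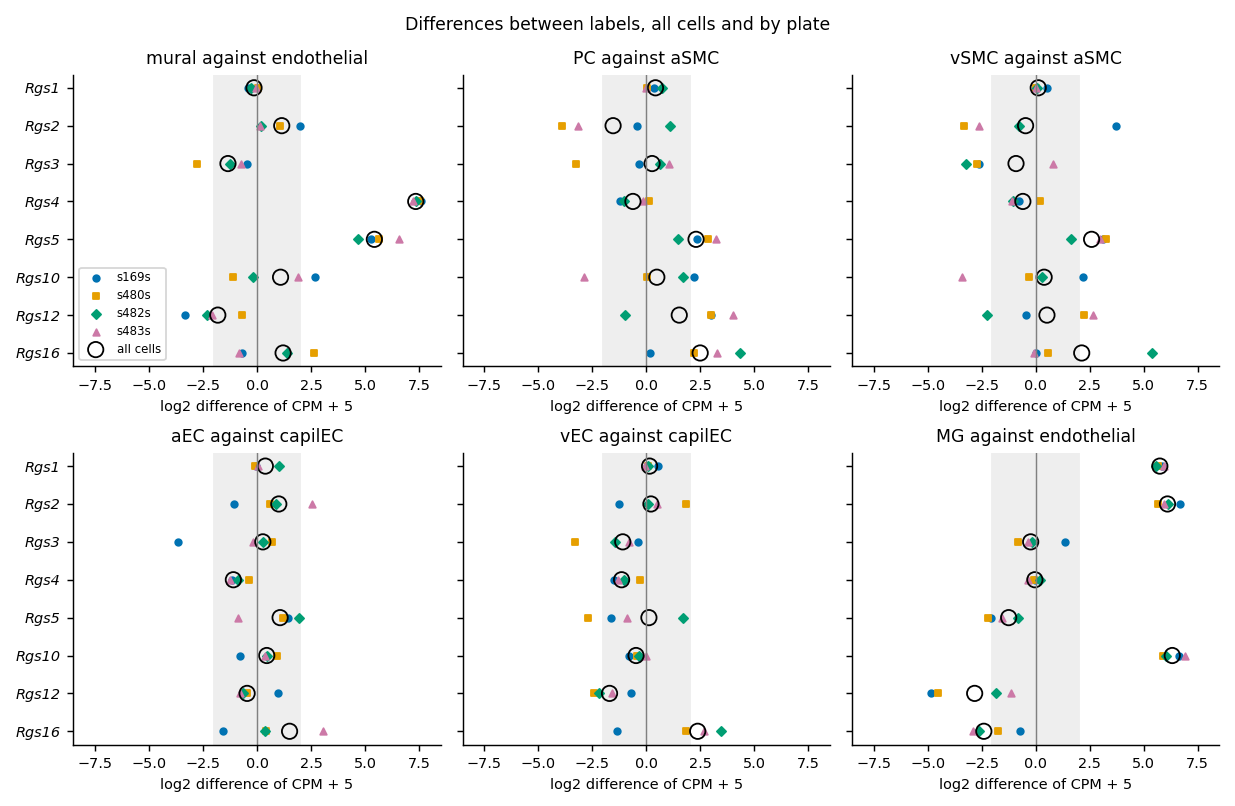
Log2 difference of CPM + 5 for each gene in 6 comparisons, with the named first group over the second; open circles are all cells, points are plates and the grey band is under 4-fold. Rgs4 and Rgs5 stand right of the band for mural against endothelial labels, Rgs5 for PC and vSMC against aSMC, and Rgs1, Rgs2 and Rgs10 for MG against endothelial labels. By all cells, Rgs16 also stands right of it for PC and vSMC against aSMC and for vEC against capilEC. Rgs12 and Rgs16 stand left of it for MG against endothelial labels. Rgs1 and Rgs16 were not called.

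FB and CP-EC added little. In FB 3 of 9 cells held clear Rgs5, at 32.1 CPM for the label, and 6 of 9 held none of the members clearly. Without the 5 FB cells carrying another class's markers, Rgs5 stood at 11.3 CPM in FB. In CP-EC the highest members were Rgs3 at 77.4 CPM and Rgs12 at 55.3 CPM, and 13 of 17 cells held none clearly. Of the Rgs3 reads in CP-EC 48.4% lay in 1 cell, which carried 6941 CPM of the microglia list. Of the Rgs12 reads 62.3% lay in 1 other cell, which carried 974 CPM of the mural list. The part of other cells' RNA in these levels was not tested. On the plate with 10 CP-EC cells Rgs3 stood at 27.3 CPM and Rgs12 at 94.1 CPM. Cells with no clear member made up 1.46% of MG, 1.85% of PC and 7.32% of aSMC, against 36.2% of aEC, 38.2% of capilEC and 55.6% of vEC.

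For each member the 5 genes with the most similar levels were taken among 8686 genes, by Pearson's r of log2(CPM + 5) over 29 pools of 1 label on 1 plate. The pools share plates and labels, so r is a description. For Rgs4 they were Perp (r = 0.988), Cryab, Myl9, Kcnmb1 and Gucy1a3. For Rgs5 they were among others Higd1b (0.947), Vtn, Pdgfrb and Ndufa4l2. For Rgs1 they were Aif1 (0.995), Fcgr1, Lrrc25, Gpr84 and Slamf9, for Rgs10 Ly86 (0.940), Fcgr3, Fcer1g, Susd3 and P2ry12, and for Rgs2 Hpgd (0.917), AF251705, Fcgr2b, Lair1 and Fcer1g. Rgs12 was closest to Ushbp1 (0.824), Spock2, Lsr, Nos3 and Pltp. Rgs3 and Rgs16 had looser partners, led by Uimc1 (0.797) and Tspyl4 (0.710).

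Of 13 further genes of the family, Rgs19 alone reached 50 CPM in a label. It stood at 307 CPM in MG (plates 228 to 537) and 99.7 CPM in vEC, the next label. Against endothelial labels it was called higher, at 307 CPM in MG and 64.9 CPM in endothelial labels, a log2 difference of 2.16. Of the rest, 5 stood between 5 and 50 CPM at most and 7 at 5 CPM or less, among them Rgs8, Rgs13 and Rgs21 without a read.

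Some of the receptors that these proteins act behind differed between mural and endothelial labels. Of 34 receptor genes, 23 were compared, and 4 were called higher and 2 lower, where 1.12% of all genes were called higher and 1.79% lower. The higher ones were the endothelin receptor gene Ednra (788 CPM in mural, 1.34 CPM in endothelial labels), S1pr3 for sphingosine 1-phosphate (560 CPM in mural, 1.30 CPM in endothelial labels), P2ry14 for UDP sugars (700 CPM in mural, 1.48 CPM in endothelial labels) and the orphan receptor gene Gprc5c (366 CPM in mural labels, log2 difference 5.86). The lower ones were S1pr1 (196 CPM in mural, 1025 CPM in endothelial labels) and Lpar6, a receptor for lysophosphatidic acid (54.5 CPM in mural, 269 CPM in endothelial labels). Of 13 alpha subunit genes 12 were compared and 0 called, a count near that background, and of 18 effector and feedback genes the adenylyl cyclase gene Adcy4 was called lower (15.1 CPM in mural, 191 CPM in endothelial labels). The median log2 difference was 1.08 over the receptors, 0.57 over the alpha subunits and −0.03 over all genes.

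Inside the mural labels, 2 of 22 receptor genes compared were called higher in PC than in aSMC and 0 lower. Of 10 beta and gamma subunit genes compared there, 1 was called higher and 0 lower. Of all genes, 1.26% were called higher and 1.22% lower in that comparison. In vSMC, 2 of 20 receptor genes were called higher than in aSMC and 0 lower, where 1.08% of all genes were called higher and 0.869% lower. P2ry14 was called higher in PC (993 CPM) and in vSMC (954 CPM) than in aSMC (152 CPM). PC also held more Lpar6 (107 CPM in PC, 11.9 CPM in aSMC) and more of the gamma subunit gene Gng2 (263 CPM in PC, 17.5 CPM in aSMC) than aSMC, Lpar6 on 3 of 4 plates. The endothelial list summed to 3478 CPM in PC and 1301 CPM in aSMC, and Lpar6 was higher in endothelial than in mural labels; the part of endothelial RNA in the Lpar6 difference was not tested. vSMC held more Gpr34, a receptor known from microglia, than aSMC (64.8 CPM in vSMC, 8.43 CPM in aSMC), on 3 of 4 plates. The microglia list summed to 473 CPM in vSMC, with 1 cell at 8215 CPM, and to 153 CPM in aSMC, and its part in the Gpr34 difference was not tested. Between aEC or vEC and capilEC, 0 genes of the 4 pathway lists were called, where at most 0.296% of all genes were called in either direction.

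In MG 8 of 19 receptor genes compared were called higher than in endothelial labels and 1 lower, where 2.19% of all genes were called higher and 3.73% lower. The higher ones included the fractalkine receptor gene Cx3cr1 (5539 CPM in MG, 19.9 CPM in endothelial labels), the nucleotide receptor genes P2ry12 (3630 CPM in MG, 13.2 CPM in endothelial labels), P2ry13 (1773 CPM in MG, 4.40 CPM in endothelial labels) and P2ry6 (588 CPM in MG, 1.38 CPM in endothelial labels), Gpr34 (1826 CPM in MG, 6.33 CPM in endothelial labels), and the complement receptor genes C3ar1 (662 CPM in MG, 1.72 CPM in endothelial labels) and C5ar1 (277 CPM in MG, 0.731 CPM in endothelial labels). The lower one was S1pr1 (220 CPM in MG, 1025 CPM in endothelial labels). Among G protein subunits, Gna15, an alpha subunit of blood cells, was higher (384 CPM in MG, 5.66 CPM in endothelial labels), as was Gng10 (514 CPM in MG, 29.4 CPM in endothelial labels), while Gng11 (31.3 CPM in MG, 524 CPM in endothelial labels) and Gnb4 (3.71 CPM in MG, 158 CPM in endothelial labels) were lower. The arrestin gene Arrb2 was higher (224 CPM in MG, 3.03 CPM in endothelial labels), and the phospholipase gene Plcb4 (4.72 CPM in MG, 186 CPM in endothelial labels) and Adcy4 (6.29 CPM in MG, 191 CPM in endothelial labels) were lower. Cx3cr1 and P2ry12 also stand in the microglia marker list, and Ednra in the mural one.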

How the data were processed

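The deposited files give whole-number read counts per gene and cell and a label per cell, and the counts are the authors' raw ones (0 rows without a gene name). The submitters' processing notes name SAMtools 1.16.1 and featureCounts with Subread 1.4.6-p5, and both GRCm38 and GRCm39 with no role for either; the aligner, the strand setting and the way labels were assigned are not given in the sources used here. All 1235 cells (285520064 reads, median 202225 per cell) were used; 0 cells were left out and 0 were identical to another. No doublet caller was run, but an alternative left out cells in which the marker list of another class exceeded 10% of that class's median.

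Counts were summed per label and divided by total reads (CPM), and compared as log2(CPM + 5) over genes above 5 CPM in either group; mural and endothelial groups are means of 3 labels. Poisson intervals belong to CPM and Clopper-Pearson intervals to shares. Where 0 reads were found, 3 reads per label set the limit, 0.0173 CPM in capilEC to 1.17 CPM in FB. Alternatives used edgeR 4.0.16 (TMM) and DESeq2 1.42.0 factors, other pseudocounts (1 and 20 CPM), equal weight per cell, no minimum level or share, library size without rRNA and mitochondrial rows, and left out plates, the largest cell or cells with other markers. Scripts ran in Python 3.11.15 and R 4.3.3. The size rule was tested on simulated cells with large changes in genes read in most cells. Sparse genes and differences near 4-fold were not covered by that test. Exon lengths came from GENCODE M21 (GRCm38).

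All 8 members were named, other family genes where they reached 50 CPM, pathway genes where called, and the 5 most similar genes per member; some genes that meet this rule are not reported here. The members, the pathway and marker lists and the rule were chosen with earlier results of these data known. The minimum of 5 thinned reads, the per-kilobase ratios and the remarks on single cells were chosen after the values were seen. Grk2 and Grk3 were found in the table as Adrbk1 and Adrbk2.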

Additional observations from a re-analysis of the deposited data

How the results depend on the processing

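The called differences of Rgs4 and Rgs5 (mural against endothelial labels), Rgs5 (PC and vSMC against aSMC) and Rgs2, Rgs10 and Rgs12 (MG against endothelial labels) kept their direction and at least 4-fold size in 84 of 84 alternative values. The pseudocount set the size of the largest ones: with 1 and 20 CPM the log2 difference was 8.15 and 5.97 for Rgs4 (mural against endothelial) and 6.91 and 5.16 for Rgs10 (MG against endothelial), and with 20 CPM 5.31 for Rgs2. TMM or DESeq2 factors moved the median log2 difference of all genes by 0.18 (mural against endothelial, DESeq2), −0.15 (PC against aSMC, TMM), −0.11 (vSMC against aSMC, TMM), −0.17 (vEC against capilEC, TMM) and 0.33 (MG against endothelial, DESeq2). The members called did not change under these factors.

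Further members passed the rule under some settings. Between mural and endothelial labels 1 member was called lower, Rgs12, without the largest cell of each label, and 0 to 1 over the left-out plates. Between PC and aSMC 2 were called higher with no minimum share of cells (Rgs16 joined), and 1 was called lower without cells carrying other markers (Rgs2); over the left-out plates 1 to 2 were higher and 0 to 1 lower, the extremes without plate s482s, where Rgs12 and Rgs2 joined. Between vSMC and aSMC 2 were called higher with no minimum share (Rgs16), and 1 was called lower with equal weight per cell (Rgs3) and without cells carrying other markers (Rgs2); over the left-out plates 0 to 1 were lower, Rgs2 without plate s169s. MG gained Rgs1 with no minimum share and without plate s482s.

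Counts over all genes moved more. With no minimum share they were 494 higher and 351 lower (mural against endothelial, 143 and 227 as reported), 628 and 450 (PC against aSMC, 154 and 150), 580 and 475 (vSMC against aSMC, 126 and 101), 65 and 23 (aEC against capilEC, 17 and 11), 95 and 81 (vEC against capilEC, 35 and 25) and 710 and 779 (MG against endothelial, 275 and 468). A pseudocount of 20 CPM gave 98 higher for PC and 69 for vSMC against aSMC, 11 higher for aEC and 12 lower for vEC against capilEC. Without cells carrying other markers 350 genes were lower in mural labels, 295 in PC and 241 in vSMC. Without the largest cell 193 were lower in vSMC and 47 in vEC. Over the left-out plates vSMC against aSMC had 116 to 199 higher and 144 to 155 lower. The cause of these moves was not tested, beyond the smaller sets of cells that some of them use.

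With 1 sample per label no statement reaches beyond these cells. FB (9 cells) and CP-EC (17 cells) limit what could be read there. Some levels rest on few cells, as for Rgs16 and for Rgs2 in vSMC.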
